A study of Mus musculus with 12 samples.

Results

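Mast cell transcripts were followed in mouse skin through 8 genes, which were the granule proteases Cpa3, Cma1, Mcpt4, Tpsb2 and Tpsab1, the IgE receptor chains Fcer1a and Ms4a2, and the histamine-forming enzyme Hdc. Members were every probe set annotated to one of these symbols and to no other, which gave 11 of the 45037 probe sets and 8 of the 18193 genes, with Tpsb2, Ms4a2 and Hdc measured by 2 probe sets each. Skin came from C3H/HeJ mice that had received grafts of alopecic skin, a model of the autoimmune hair loss alopecia areata. All 4 groups carried the graft, and treatment began after disease was established. The groups were topical baricitinib, an inhibitor of the kinases JAK1 and JAK2, at week 12 and at week 0 of treatment, and topical vehicle control at week 12 and at week 0. Each group held 3 arrays, and the sample codes in the labels end in the same 3 numbers at both weeks of a treatment, which were taken as animal numbers, so that the 12 arrays are treated as 6 mice. Recipients were young when grafted, as far as the methods state it, and were kept for further weeks until hair loss was nearly complete before treatment. Sex was not given in the sources used here. Biopsies held whole skin with no cell separation, so fewer mast cells and less RNA per mast cell cannot be told apart.

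Mast cells of skin are long-lived cells of the dermis that store proteases, histamine and heparin in granules. Connective tissue mast cells of the mouse carry the carboxypeptidase Cpa3, the chymases Cma1 and Mcpt4 and the tryptases Tpsb2 and Tpsab1, whereas mucosal mast cells use the chymases Mcpt1 and Mcpt2. IgE binds the receptor built from the alpha chain Fcer1a, the beta chain Ms4a2 and the shared gamma chain Fcer1g. Signals of this receptor trigger release of the granules. The lineage depends on Kit ligand and on the transcription factor Gata2.

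Promoters of 6 of the 8 genes were found in a reference set of promoters of build GRCm38. They are windows of 250 bases before to 50 bases after the gene start. Shown are 4 of them, which belong to the genes whose levels moved together or apart below. Mcpt4 lies on chr14:56062261-56062560, Cpa3 on chr3:20242132-20242431, Fcer1a on chr1:173227180-173227479 and Ms4a2 on chr19:11623670-11623969, all on the minus strand, and each sequence is written 5′ to 3′ along the gene. Capitals mark GATA hexamers, which were AGATAA or AGATAG, or the same with a first T, TGATAA or TGATAG, on either strand.
Mcpt4 promoter: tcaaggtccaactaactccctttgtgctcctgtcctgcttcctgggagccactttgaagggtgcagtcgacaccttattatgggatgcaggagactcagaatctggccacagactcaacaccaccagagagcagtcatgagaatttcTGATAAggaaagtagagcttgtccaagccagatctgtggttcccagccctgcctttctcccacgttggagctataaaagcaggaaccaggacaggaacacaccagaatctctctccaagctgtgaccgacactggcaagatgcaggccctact
Cpa3 promoter: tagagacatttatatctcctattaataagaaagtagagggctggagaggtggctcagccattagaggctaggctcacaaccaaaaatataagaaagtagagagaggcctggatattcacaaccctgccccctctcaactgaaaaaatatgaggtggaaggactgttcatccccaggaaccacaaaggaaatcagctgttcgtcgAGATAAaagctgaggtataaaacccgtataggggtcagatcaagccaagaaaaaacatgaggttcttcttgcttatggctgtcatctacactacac
Fcer1a promoter: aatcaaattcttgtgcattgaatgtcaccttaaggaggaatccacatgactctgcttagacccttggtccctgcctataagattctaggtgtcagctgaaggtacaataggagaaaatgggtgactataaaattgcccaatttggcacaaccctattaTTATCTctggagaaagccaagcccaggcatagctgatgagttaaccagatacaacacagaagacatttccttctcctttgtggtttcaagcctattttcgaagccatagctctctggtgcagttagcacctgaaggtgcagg
Ms4a2 promoter: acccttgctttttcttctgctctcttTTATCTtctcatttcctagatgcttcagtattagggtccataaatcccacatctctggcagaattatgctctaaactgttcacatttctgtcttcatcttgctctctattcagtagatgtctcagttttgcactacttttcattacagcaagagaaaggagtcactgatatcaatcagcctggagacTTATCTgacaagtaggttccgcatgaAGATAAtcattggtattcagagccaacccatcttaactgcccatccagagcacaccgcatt
A GATA hexamer was present in 6 of the 6 member promoters, against 29.8% of 32851 promoters of the same length. The hexamer began 103 bases before the gene start in Mcpt4, 46 in Cpa3 and 92 in Fcer1a, and Ms4a2 held 3, which began 224, 37 and 11 bases before its start. In Cma1 it began 79 bases and in Hdc 221 bases before the start. E-box hexamers (CACGTG and CATGTG, searched on both strands) were found in 1 of 6, that of Fcer1a, against 20.4% of promoters. A match in these windows is a description of letters, and binding was not measured.

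Array medians lay between 5.16 and 5.35 on the log2 scale of the robust multi-array average (RMA), and pairs of arrays correlated at 0.900 to 0.989. Baricitinib week 12 mouse 1 and baricitinib week 0 mouse 2 had a narrower spread of values, with interquartile ranges of 4.11 and 3.94 against 4.47 to 4.70 on the other 10 arrays. Across all probe sets, limma with Benjamini-Hochberg adjustment at 0.05 called 163 higher and 394 lower at week 12 than at week 0 with baricitinib, and 68 higher and 193 lower with baricitinib than with vehicle at week 12. It called 0 for vehicle week 12 against week 0, 0 for baricitinib against vehicle at week 0 and 0 for the difference between the changes. Before adjustment, p was under 0.05 for 557, 198 and 1359 higher and for 551, 310 and 1466 lower probe sets in these comparisons, in that order. Arrays of a group were taken as separate mice by these codes, and their number limits the precision of every value below.

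None of the 11 member probe sets passed the limma test in any of the 5 comparisons. In baricitinib treated mice, 0 of 11 were called at week 12 against week 0, where 1.24% of all probe sets were called, and 2 were higher at an unadjusted p under 0.05 (Mcpt4 and Tpsb2 at 1422180_a_at, against 6.23% of all probe sets) and 0 lower (6.05%). Between baricitinib and vehicle at week 12, 0 were called (0.58% of all probe sets), be it higher (0.151%) or lower (0.429%), and 1 was higher (Mcpt4, background 4.88%) and 1 lower (Fcer1a, background 6.01%) at an unadjusted p under 0.05. Over the 11 probe sets the median log2 difference for baricitinib week 12 minus week 0 was -0.12, beside 0.00 for all probe sets, and for vehicle week 12 minus week 0 it was 0.45, beside 0.02. Leaving out 1 array moved the first median between -0.40 (without baricitinib week 0 mouse 3) and 0.17 (without baricitinib week 12 mouse 3) and the second between -0.09 (without vehicle week 0 mouse 1) and 0.99 (without vehicle week 12 mouse 1), so neither sign was stable. Point estimates of the 11 probe sets for baricitinib week 12 minus week 0 ranged between -1.02 and 1.79 on the log2 scale. Whether the members differed from each other was not tested.

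**Figure D1:**
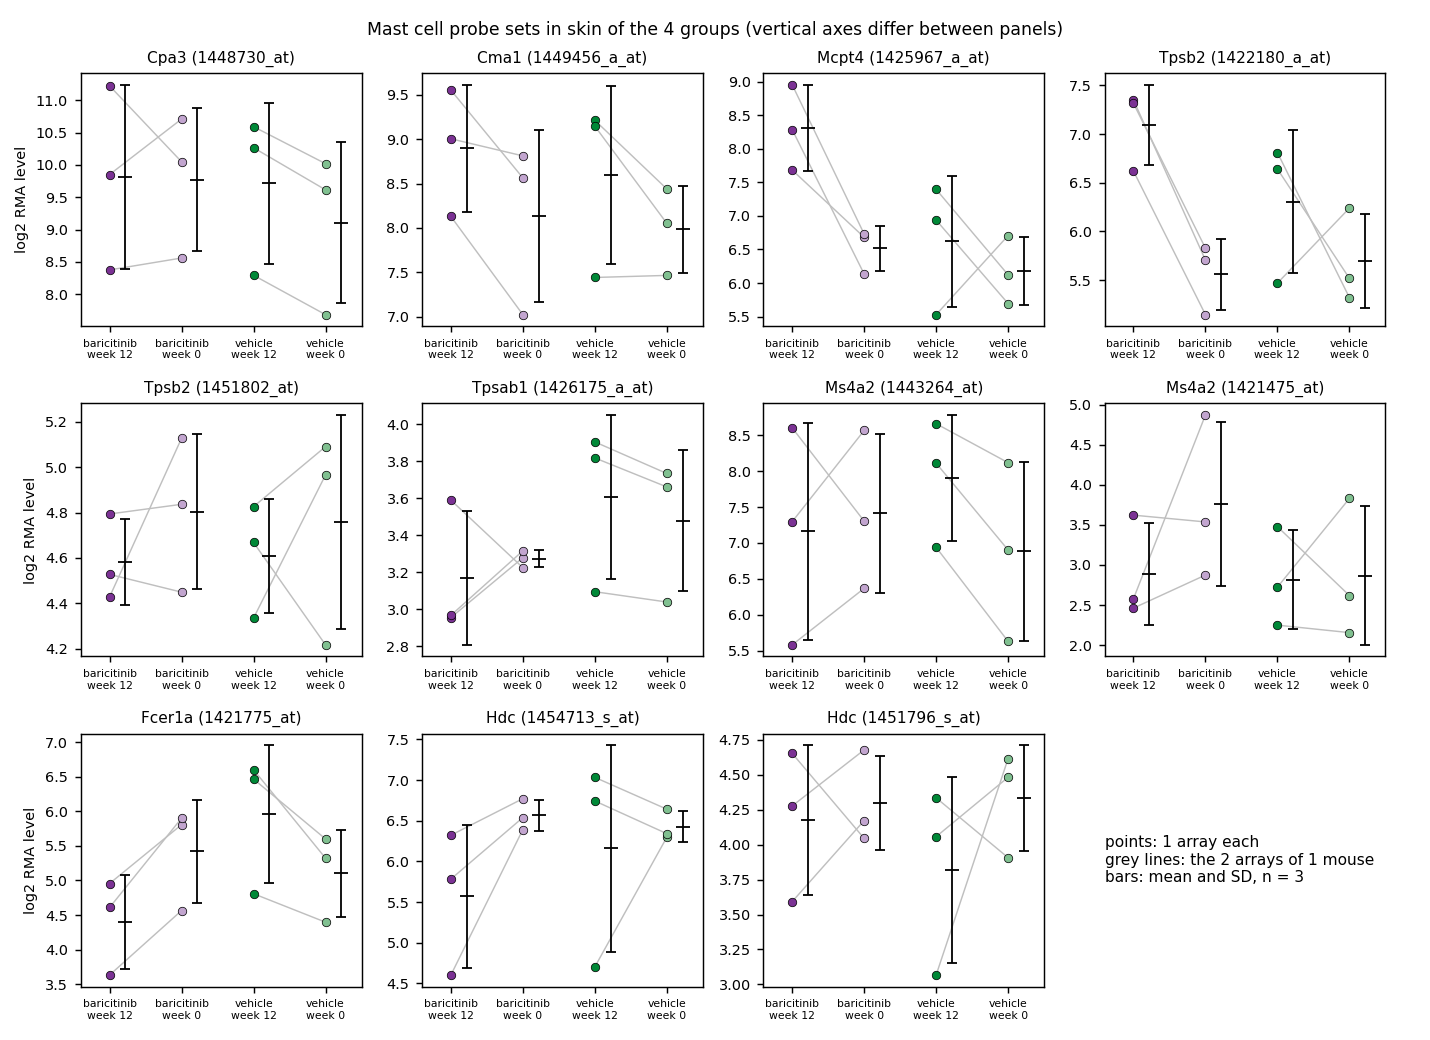
Level on the log2 RMA scale (vertical axes differ between panels) of each of the 11 member probe sets on each array, in groups of 3 arrays with mean and SD, with grey lines joining the 2 arrays of 1 mouse. For Mcpt4 the 3 baricitinib week 12 arrays, at 7.68 to 8.95, lay above the other 9 arrays, and for Fcer1a the lines run opposite ways with baricitinib and with vehicle.

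Mcpt4, the chymase of mouse connective tissue mast cells that digests matrix proteins and proteases, had the largest positive difference of the members for baricitinib week 12 minus week 0. Its log2 levels in mice 1, 2 and 3 were 7.68, 8.95 and 8.28 in baricitinib week 12 skin and 6.68, 6.73 and 6.13 in baricitinib week 0 skin. In vehicle mice they were 5.53, 6.94 and 7.39 at week 12 and 6.71, 5.69 and 6.12 at week 0. All 3 baricitinib week 12 arrays lay above the other 9 arrays, as was the case for 2.16% of all probe sets. The week 12 array was higher in 3 of 3 baricitinib mice and in 2 of 3 vehicle mice. The difference was 1.79 for baricitinib week 12 minus week 0 (SE 0.48, 95% interval 0.75 to 2.83, 3.46-fold), with an adjusted p of 0.108 in limma. Against vehicle at week 12 it was 1.69 (SE 0.48, 3.22-fold, adjusted p = 0.176 in limma), and the change with baricitinib exceeded that with vehicle by 1.35 (95% interval -0.13 to 2.82, adjusted p = 0.836 in limma). Leaving out 1 array moved the former between 1.14 and 2.07 and the latter between 0.80 and 1.73. Each was lowest without vehicle week 12 mouse 1 and highest without vehicle week 12 mouse 3. Vehicle week 12 minus week 0 gave 0.45 (95% interval -0.60 to 1.49), with mouse 1 at -1.18 and mice 2 and 3 at 1.24 and 1.27. At week 0 the treatment groups differed by 0.34 (95% interval -0.70 to 1.38).

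Tpsb2, a tryptase stored in mast cell granules as a heparin-bound tetramer, resembled Mcpt4 at 1 of its 2 probe sets. At 1422180_a_at the log2 levels in mice 1, 2 and 3 were 7.35, 7.32 and 6.62 in baricitinib week 12 skin and 5.70, 5.83 and 5.14 in baricitinib week 0 skin, against 5.47, 6.64 and 6.81 in vehicle week 12 skin and 6.24, 5.52 and 5.32 in vehicle week 0 skin. The baricitinib weeks did not overlap, while baricitinib and vehicle overlapped at week 12. Of the 11 member probe sets, 2 lay wholly higher at baricitinib week 12 than at week 0 (Mcpt4 and this one, background 7.97%) and 1 wholly lower (Hdc, background 7.91%). The difference for baricitinib week 12 minus week 0 was 1.54 (SE 0.39, 95% interval 0.68 to 2.39, 2.90-fold, adjusted p = 0.092 in limma), and each of the 3 mice was higher at week 12, by 1.65, 1.49 and 1.48. With vehicle the difference between the weeks was 0.61 (95% interval -0.24 to 1.47), and vehicle mouse 1 went the opposite way to mice 2 and 3, at -0.77 against 1.12 and 1.49. Between baricitinib and vehicle at week 12 it was 0.79 (95% interval -0.07 to 1.64, adjusted p = 0.514 in limma). The other probe set, 1451802_at, lay below the median of all probe sets and gave -0.22 for baricitinib week 12 minus week 0 (95% interval -0.84 to 0.40), so the 2 probe sets of Tpsb2 disagreed in sign, and their mean gave 0.66 (adjusted p = 0.304 in limma).

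Tpsab1, the closest relative of Tpsb2, had a single probe set of low signal, at 2.96 to 3.59 in baricitinib week 12 skin, 3.22 to 3.32 in baricitinib week 0 skin, 3.10 to 3.90 in vehicle week 12 skin and 3.04 to 3.73 in vehicle week 0 skin. Its difference for baricitinib week 12 minus week 0 was -0.10 (95% interval -0.74 to 0.53). The tryptases are related in sequence. Whether their probes take up each other's transcripts was not tested, so the values of Tpsb2 and Tpsab1 are uncertain as to gene.

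Cpa3 and Cma1, a carboxypeptidase and the chymase closest to the human enzyme, which are stored together in connective tissue mast cells, varied between mice more than between groups. Cpa3 levels in mice 1, 2 and 3 were 11.22, 9.85 and 8.38 in baricitinib week 12 skin and 10.05, 10.71 and 8.56 in baricitinib week 0 skin. In vehicle mice they were 8.29, 10.26 and 10.59 at week 12 and 7.69, 9.61 and 10.02 at week 0. All groups overlapped, and the spread over the 6 mice was 2.93 at week 12 and 3.02 at week 0 on the log2 scale. Baricitinib mouse 3 and vehicle mouse 1 were the lowest pair at both weeks, and the highest baricitinib array at each week was the one with the narrower spread of values. The differences of Cpa3 were 0.04 for baricitinib week 12 minus week 0 (95% interval -1.86 to 1.95, adjusted p = 0.992 in limma) and 0.10 for baricitinib minus vehicle at week 12 (95% interval -1.81 to 2.01), and without both narrow arrays they were -0.19 and -0.60. These intervals leave room for several-fold differences either way.

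Cma1 levels were 9.55, 9.004 and 8.13 in baricitinib week 12 skin and 8.56, 8.81 and 7.02 in baricitinib week 0 skin, against 7.44, 9.21 and 9.15 in vehicle week 12 skin and 7.47, 8.44 and 8.05 in vehicle week 0 skin. The week 12 array was higher in 3 of 3 baricitinib mice and 2 of 3 vehicle mice, and the groups overlapped. The difference was 0.76 for baricitinib week 12 minus week 0 (95% interval -0.52 to 2.04, adjusted p = 0.684 in limma; 0.21 without baricitinib week 0 mouse 3) and 0.61 for vehicle week 12 minus week 0 (95% interval -0.66 to 1.89). Cma1 and Mcpt4 belong to the chymase cluster on chromosome 14, where Mcpt1 and Mcpt2 neighbour both genes in the RefSeq gene table. These mucosal chymases gave low signals of 1.36 to 2.58 and 1.69 to 3.24 over the 12 arrays, and the basophil protease Mcpt8 gave 3.34 to 5.36.

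**Figure D2:**
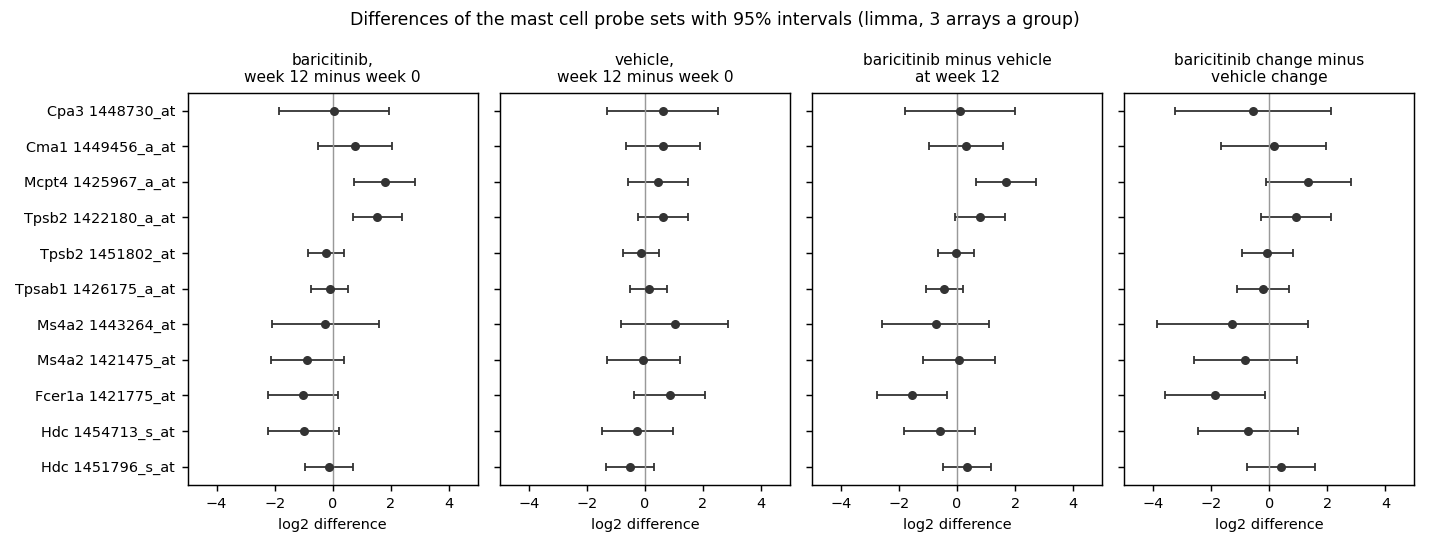
Log2 differences of the 11 member probe sets (points) with 95% intervals from limma (bars), in 4 comparisons of groups of 3 arrays, with a line at 0. For baricitinib week 12 minus week 0 the intervals of Mcpt4 (0.75 to 2.83) and Tpsb2 at 1422180_a_at (0.68 to 2.39) lie above 0, and for baricitinib minus vehicle at week 12 that of Fcer1a (-2.77 to -0.34) lies below 0, though none passed after adjustment.

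Fcer1a, the chain that holds IgE, was the member with the most negative difference between the treatments at week 12. Its levels in mice 1, 2 and 3 were 4.95, 4.61 and 3.63 in baricitinib week 12 skin and 5.81, 5.90 and 4.56 in baricitinib week 0 skin, against 4.81, 6.46 and 6.60 in vehicle week 12 skin and 4.40, 5.60 and 5.32 in vehicle week 0 skin. The week 12 array was lower in 3 of 3 baricitinib mice and higher in 3 of 3 vehicle mice, a pattern seen in 1.62% of all probe sets. Within each comparison of groups the arrays overlapped. The difference was -1.02 for baricitinib week 12 minus week 0 (95% interval -2.24 to 0.19, adjusted p = 0.515 in limma) and 0.85 for vehicle week 12 minus week 0 (95% interval -0.36 to 2.07). Between baricitinib and vehicle at week 12 it was -1.56 (SE 0.56, 0.339-fold, adjusted p = 0.300 in limma), and the change with baricitinib minus that with vehicle was -1.88 (95% interval -3.60 to -0.16, adjusted p = 0.742 in limma). The overall level lay just under the median of all probe sets, with 49.8% of them below it.

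Ms4a2, the beta chain that amplifies the signal of the receptor, had 2 probe sets, with mean levels of 7.34 and 3.08 over the 12 arrays. Pearson's r between them was 0.69, and 0.85 after the group means were taken out. At 1443264_at the week 12 minus week 0 values had the same sign as those of Cpa3 in each mouse. At 1443264_at the levels were 8.61, 7.30 and 5.58 in baricitinib week 12 skin and 7.30, 8.57 and 6.37 in baricitinib week 0 skin, against 6.94, 8.11 and 8.66 in vehicle week 12 skin and 5.63, 6.90 and 8.12 in vehicle week 0 skin. The groups overlapped throughout, and the week 12 array was higher in 1 of 3 baricitinib mice and 3 of 3 vehicle mice. The difference was -0.25 for baricitinib week 12 minus week 0 (95% interval -2.09 to 1.58) and 1.02 for vehicle week 12 minus week 0 (95% interval -0.82 to 2.86). The second probe set, 1421475_at, had a low signal of 2.46 to 3.62 in baricitinib week 12 skin against 2.87 to 4.87 at week 0, with a difference of -0.87 (95% interval -2.12 to 0.38), and for vehicle week 12 minus week 0 it gave -0.051 (95% interval -1.30 to 1.20).

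Hdc, the enzyme that makes histamine from histidine, was lower at week 12 in 3 of 3 baricitinib mice at 1454713_s_at. The levels were 6.32, 5.78 and 4.60 in baricitinib week 12 skin and 6.77, 6.54 and 6.39 in baricitinib week 0 skin, which did not overlap, against 4.70, 6.74 and 7.03 in vehicle week 12 skin and 6.30, 6.34 and 6.64 in vehicle week 0 skin. Vehicle mouse 1 at week 12 lay close to the lowest baricitinib mouse, so the treatments overlapped at week 12. The difference for baricitinib week 12 minus week 0 was -0.998 (SE 0.56, 95% interval -2.22 to 0.23, 0.501-fold, adjusted p = 0.534 in limma). For vehicle week 12 minus week 0 it was -0.27 (95% interval -1.49 to 0.96), with mouse 1 at -1.59 and mice 2 and 3 at 0.40 and 0.39. Between baricitinib and vehicle at week 12 it was -0.59 (95% interval -1.81 to 0.63). The second probe set, 1451796_s_at, gave -0.12 for baricitinib week 12 minus week 0 (95% interval -0.95 to 0.70). Between baricitinib and vehicle at week 12 it gave 0.35 (95% interval -0.47 to 1.18), so the 2 probe sets disagreed in sign there. Both names end in _s_at, the maker's mark for probes that may match more than 1 transcript family.

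For vehicle week 12 against week 0, 0 of the 11 probe sets were called (0% of all probe sets) and 0 lay wholly higher (background 4.68%) or wholly lower (3.59%). Before adjustment, p was under 0.05 for 0 of them in the direction of a higher level (background 1.24%) and for 0 in that of a lower one (1.22%). At week 0, baricitinib and vehicle also gave 0 called (0% of all probe sets) and 0 wholly higher (2.27%) or lower (2.73%), no unadjusted p under 0.05 for a higher (background 0.44%) or a lower (0.688%) level, and differences between -0.20 and 0.89. For the change with baricitinib minus the change with vehicle, 0 were called (0% of all probe sets) and 1, Fcer1a, was lower at an unadjusted p under 0.05 (background 3.26%), with 0 higher (3.02%). At week 12, Mcpt4 alone lay wholly higher with baricitinib than with vehicle (background 7.44%) and 0 lay wholly lower (9.69%). By mouse, 3 probe sets (Mcpt4, Cma1 and Tpsb2 at 1422180_a_at) were higher at week 12 in 3 of 3 baricitinib mice, against 13.3% of all probe sets, and 2 (Fcer1a and Hdc at 1454713_s_at) were lower in all 3, against 12.9%. In vehicle mice 4 (Cpa3, Tpsab1, Ms4a2 at 1443264_at and Fcer1a) were higher in 3 of 3, against 14.9%, and 0 lower, against 11.2%. No member lay below the other 9 arrays in all 3 baricitinib week 12 arrays (background 3.07%), and none was higher in every baricitinib mouse and lower in every vehicle mouse (background 1.32%).

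Within groups, where arrays differed widely, several members varied together. After the group means were taken out, Pearson's r of Cpa3 over the 12 arrays was 0.96 with Ms4a2 (1443264_at), 0.95 with Fcer1a and 0.92 with Cma1, and that of Cma1 with Fcer1a was 0.98. Cma1 and Ms4a2 (1443264_at) stood at 0.81. With these genes Hdc (1454713_s_at) reached 0.71 to 0.83 and Tpsab1 0.69 to 0.82, so the block had no sharp edge. Mcpt4 stood outside this block, at 0.19 with Cpa3 and 0.39 with Cma1, and it was closest to Tpsb2 (1422180_a_at) at 0.75. With the group means left in, Cpa3 and Ms4a2 correlated at 0.92, Mcpt4 and Tpsb2 at 0.87, and Mcpt4 and Fcer1a at -0.25. The points share arrays and mice, and these values describe 12 arrays with no test.

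**Figure D3:**
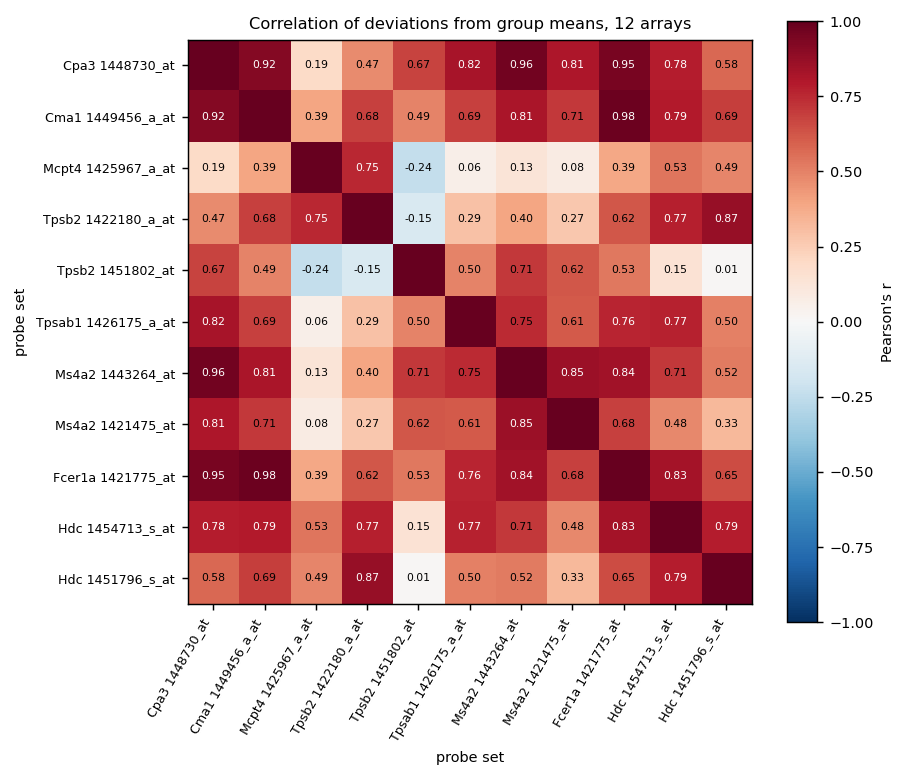
Pearson's r between the 11 member probe sets (both axes) over 12 arrays after removal of each group's mean, from -1 (blue) to 1 (red). Cpa3, Cma1, Fcer1a and Ms4a2 at 1443264_at form a block, with Cma1 and Fcer1a at 0.98. Hdc at 1454713_s_at (0.71 to 0.83 with these) and Tpsab1 (0.69 to 0.82) lie close to it. Mcpt4 reaches 0.19 with Cpa3 and 0.75 with Tpsb2 at 1422180_a_at.

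A member pattern was computed as the mean of the standardised levels (SDs from the mean of the 12 arrays) of the 6 genes above the median of all probe sets, which were Cpa3, Cma1, Mcpt4, Tpsb2, Ms4a2 and Hdc. In mice 1, 2 and 3 it was 1.09, 0.65 and -0.52 SDs at baricitinib week 12 and 0.09, 0.41 and -0.89 at baricitinib week 0, against -1.15, 0.61 and 0.90 at vehicle week 12 and -0.73, -0.36 and -0.10 at vehicle week 0. Baricitinib mouse 3 and vehicle mouse 1 were lowest in their treatment at both weeks. Among genes with a level above the median, those closest to the pattern were Glt8d2 (r = 0.95), Adgra2 (0.95), Man1c1 (0.94), Eln, which encodes elastin (0.93), Ntng1 (0.93), Hspa12b (0.93), Stxbp6 (0.93) and Celf2 (0.93), over 12 arrays. None of these 8 genes was called in any of the 5 comparisons. The mean level of 6 fibroblast and matrix genes followed the pattern at r = 0.86 and that of 6 T cell genes at -0.60, and the part of these tissue shares in the members' values was not tested.

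Other mast cell genes were read from lists, at the probe set with the highest mean. Of all probe sets, 1.24% were called between the baricitinib weeks, 0.58% between treatments at week 12 and 0% in the other comparisons. The counts of 0 below stand beside these low shares. Of the lineage transcription factors, 0 of 5 were called in any comparison, and Gata2 followed the member pattern at r = 0.91, Tal1 at 0.88 and Gata1 at 0.77, whereas Mitf stood at -0.34 and Cebpa at -0.37. Gata2 gave 0.53 and Cebpa 0.62 for baricitinib week 12 minus week 0. Of 5 surface receptors 0 were called, with Mrgprb1, a receptor of connective tissue mast cells, at r = 0.90 and Kit, the receptor for Kit ligand, at 0.30, Cd200r3 at 0.70, Fcer1g at -0.042 and Adora3 at -0.45. After the group means were taken out, r was 0.95 for Mrgprb1, 0.72 for Kit, 0.74 for Cd200r3, 0.044 for Fcer1g and -0.57 for Adora3. Kit gave -0.75 (adjusted p = 0.509 in limma) and Fcer1g, the gamma chain, -0.41 for baricitinib week 12 minus week 0. Of 5 other proteases 0 were called, and Mcpt8 gave -0.47 and Mcpt2 0.31.

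**Figure D4:**
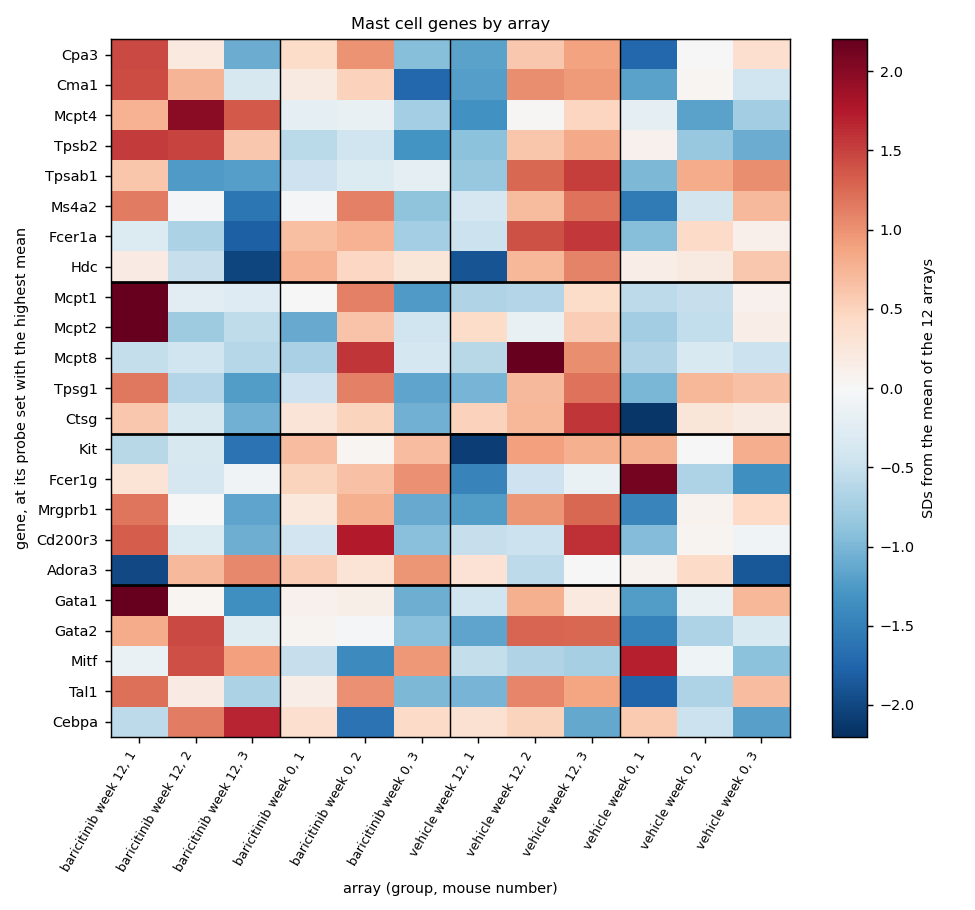
Standardised level (SDs from the mean of the 12 arrays, blue low, red high) of the 8 member genes, then other mast cell and basophil proteases, surface receptors and lineage transcription factors (blocks divided by black lines), with 1 column for each array. The columns of baricitinib mouse 3 and vehicle mouse 1 are blue at both weeks for Cpa3, Ms4a2, Mrgprb1 and Tal1, while Mcpt4 is red in all 3 baricitinib week 12 columns.

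Genes of granule and mediator synthesis gave 0 of 9 called, with Ltc4s, the leukotriene C4 synthase, at 1.11 (adjusted p = 0.280 in limma) and Srgn, the proteoglycan core of granules, at -0.99 (adjusted p = 0.119 in limma) for baricitinib week 12 minus week 0. Among histamine receptors and breakdown 0 of 6 were called, with Hnmt, which methylates histamine, at 1.54 (adjusted p = 0.221 in limma) and Hrh1 at -0.60. Of the basophil list 0 of 3 were called, with Il3ra at -0.33. Over all probe sets the share called was 1.24% between the baricitinib weeks, 0.58% between treatments at week 12 and 0% otherwise.

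IgE receptor signalling had 1 of 11 genes called lower at baricitinib week 12 than at week 0 and 0 called higher, against 0.875% and 0.362% of all probe sets. That gene was Lcp2, an adaptor used by mast cells and T cells alike. Its levels were 6.45, 6.50 and 6.68 in baricitinib week 12 skin and 7.59, 7.86 and 7.56 in baricitinib week 0 skin, against 7.34, 7.73 and 7.24 in vehicle week 12 skin and 8.36, 7.72 and 7.88 in vehicle week 0 skin. The difference was -1.13 (SE 0.23, adjusted p = 0.042 in limma), and all 3 baricitinib week 12 arrays lay below the other 9 (background 3.07%). The kinase Syk gave -1.07 (adjusted p = 0.094 in limma). Beside this, the T cell list had 1 of 6 genes called lower, Cd8a, at -4.29 (adjusted p = 0.009 in limma), and its mean level was 6.55 to 7.48 in baricitinib week 12 skin against 7.38 to 8.60 in baricitinib week 0 skin. Most of that gap lay in Cd8a. Cd5 gave -0.83 and Cd2 -0.57, whereas Cd3e gave 0.01, Cd3d -0.08 and Cd3g 0.55, and the median of the 6 genes was -0.33. The part of T cells in the level of Lcp2 was not tested.

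Mast cell growth factors and cytokines had 1 of 9 genes called higher at baricitinib week 12 than at week 0 and 0 called lower, against 0.362% and 0.875% of all probe sets. Il33, an alarmin that activates mast cells, stood at 9.61, 9.85 and 10.01 in baricitinib week 12 skin and at 8.53, 8.81 and 8.40 in baricitinib week 0 skin, against 9.25, 9.11 and 9.75 in vehicle week 12 skin and 8.42, 8.84 and 9.22 in vehicle week 0 skin. The baricitinib weeks did not overlap (background 7.97%), and the difference was 1.24 (SE 0.27, adjusted p = 0.0495 in limma). Il13 gave -1.73 (adjusted p = 0.157 in limma), and Kitl, the ligand of Kit, gave -0.08 while following the member pattern at r = 0.81. The calls of Il33 and Lcp2 sat close to the threshold. With mouse as a block the adjusted p was 0.096 for Il33 and 0.143 for Lcp2, and each lost its call in 15 of 23 alternatives, with an adjusted p of up to 0.194 and 0.155. Il33 kept its call without baricitinib week 12 mouse 1 or vehicle week 0 mouse 1 or 3, and Lcp2 without vehicle week 0 mouse 1, and each lost it without any other single array. Neither was called between baricitinib and vehicle at week 12 or for the difference between the changes.

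Markers of some other tissue parts also differed between these groups, and the alternatives were not run for any of these lists. No gene of the macrophage, melanocyte, endothelial, fibroblast, skeletal muscle or epidermis lists was called in any comparison, where at most 1.24% of all probe sets were called. The mean log2 level of 5 adipocyte genes was 10.30 to 10.75 in baricitinib week 12 skin and 7.59 to 9.28 in baricitinib week 0 skin, against 7.96 to 9.40 in vehicle week 12 skin. Of these genes 1, Cidec, was called higher at baricitinib week 12 than at week 0 (2.76, adjusted p = 0.018 in limma, background 0.362%). The mean log2 level of 5 endothelial genes was 6.75 to 7.04 in baricitinib week 12 skin and 5.87 to 6.13 in baricitinib week 0 skin, against 5.86 to 6.25 in vehicle week 12 skin. That of 7 hair shaft genes was 4.32 to 5.69 in baricitinib week 12 skin and 9.45 to 10.93 in baricitinib week 0 skin, against 8.07 to 8.86 in vehicle week 12 skin. In the hair shaft list 4 of 7 genes were called lower at baricitinib week 12 than at week 0 (background 0.875%). They were Krt31, Krt35, Krt82 and Krtap4-2, at -5.16, -6.51, -5.11 and -5.77. Krt35 and the T cell gene Cd8a were also called lower than in vehicle skin at week 12 (background 0.429%), at -4.80 and -4.39. The mean of 6 fibroblast and matrix genes was 10.96 to 11.51 in baricitinib week 12 skin and 10.38 to 11.36 in baricitinib week 0 skin, against 10.08 to 11.28 in vehicle week 12 skin. The part of any of these in the values of Mcpt4, Tpsb2 and Fcer1a was not tested.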

How the data were processed

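RNA of skin biopsies was amplified, labelled and hybridised to Affymetrix mouse arrays. The authors normalized the arrays of each experiment separately by RMA, and the deposited log2 values were taken as they stood, with no filter, no further normalization and no detection calls. Their methods describe the removal, after quality control, of a baricitinib array at each week of the topical experiment, and of a control array at baseline whose experiment is not named. They do not say which arrays. The methods give 3 mice for each topical treatment, sampled at both weeks, and each group here holds 3 arrays. The arrays with the narrower spread were baricitinib week 0 mouse 2 and baricitinib week 12 mouse 1. Whether the removed arrays are among the 12 used here could not be told. The version of RMA is not given in the sources used here. Genes were named from the platform annotation: 34945 probe sets carried 1 symbol, 932 several and 9160 none, and 64 control probe sets were left out. Of 114 genes in other lists, 103 had a probe set of their own.

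limma 3.58.1 in R 4.3.3 was fitted with a mean for each of the 4 groups (8 residual and 3.54 prior degrees of freedom), and the Benjamini-Hochberg adjustment ran over 45037 probe sets in each of 5 comparisons, with a threshold of 0.05. All p-values measure the spread between these arrays. The scripts were tested on simulated data. Members and lists were chosen with earlier results of these data known. Named beside the members were list genes called in any comparison, the 2 genes of each mast cell list with the largest absolute value for baricitinib week 12 minus week 0, and the 8 genes most like the member pattern. Other list genes were named after their values were seen. Pairing rests on the numbers shared by the sample codes in the labels, read as animal numbers. Between the weeks, the deviations of a mouse's 2 arrays from their group means correlated at -0.36, -0.51 and 0.47 for baricitinib mice 1, 2 and 3 and at 0.44, -0.13 and 0.49 for vehicle mice. Alternatives were mouse as a block, fits of only the groups compared, a variance prior that follows the level, only probe sets above the median, median centring, cyclic loess, array weights, probe set means and leaving out each array. Quantile normalization and leaving out both narrow arrays were chosen after seeing the data.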

Additional observations from a re-analysis of the deposited data

Results flagged for a closer look

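With arrays paired by the numbers in the sample codes, Fcer1a had a lower week 12 than week 0 level in 3 of 3 baricitinib mice, by -0.85, -1.29 and -0.93, and a higher one in 3 of 3 vehicle mice, by 0.41, 0.87 and 1.28, on the log2 scale. The change with baricitinib minus the change with vehicle was -1.88, and this difference did not pass in limma (adjusted p = 0.742). Opposite directions of this kind occurred in 1.62% of all probe sets.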

How the results depend on the processing

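Of 886 values for 8 genes in 5 comparisons under up to 12 arrays left out in turn and 11 other settings, 835 kept their direction and their side of the threshold, 43 changed sign and 8 passed the threshold. All 8 came from array weights. Their estimation raised a warning and may not have converged, and it gave vehicle week 0 replicate 2 a weight of 32.1. With them 5998 probe sets in all were called higher and 5279 lower at baricitinib week 12 than at week 0, 2411 and 2575 with vehicle, 5423 and 5782 for baricitinib minus vehicle at week 12, 2396 and 3316 at week 0 and 3245 and 3345 for the difference between changes. Member probe sets called were 2 higher (Mcpt4 at 2.35, adjusted p = 0.000514 in limma, and Tpsb2 at 1.72), 1 higher and 1 lower (both Tpsb2), 2 higher (Mcpt4, Tpsb2) and 2 lower (Fcer1a, Tpsab1), 0, and 1 higher (Mcpt4). Values that changed sign with array weights were Ms4a2 at 0.091 in the baricitinib weeks, Tpsab1 at -0.032 in the vehicle weeks, Cpa3 at -0.056 between treatments at week 12, -0.064 at week 0 and 0.0075 in the difference between changes, and Cma1 at -0.40 and Fcer1a at -0.22 at week 0. Median centring gave Cpa3 -0.015 and quantile normalization -0.0044 in the baricitinib weeks.

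The mouse as a fixed replicate block called 28 higher and 130 lower in the baricitinib weeks and 0 members, and changed no member's call. The mean of its 2 probe sets gave Tpsb2 0.66 in the baricitinib weeks (adjusted p = 0.304 in limma). With the block the adjusted p was 0.193 for Mcpt4 and 0.181 for Tpsb2. Fitting only the groups compared called 9 higher and 88 lower in the baricitinib weeks, 1 lower in the vehicle weeks and 12 and 43 between treatments at week 12. Without both narrow arrays 348 were called higher in the baricitinib weeks, 1 lower in the vehicle weeks, 443 higher and 565 lower between treatments at week 12, and 16 and 19 for the difference between changes, with Cpa3 at -0.19 in the baricitinib weeks and -0.60 between treatments at week 12, Cma1 at -0.033 at week 12 and -0.19 at week 0, and Ms4a2 at -0.047 at week 0. For the difference between changes cyclic loess called 1 higher and quantile normalization 4 higher and 2 lower. The cause of these shifts was not tested.

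Without 1 array at a time no member was called. Calls over all probe sets ranged between 10 (without baricitinib week 0 replicate 3) and 615 higher and 60 and 749 lower in the baricitinib weeks, 11 and 258 higher and 21 and 367 lower between treatments at week 12, 0 and 1 lower in the vehicle weeks, and 0 and 23 higher and 0 and 32 lower for the difference between changes, the highest counts without baricitinib week 12 replicate 1. Mcpt4 stayed between 1.47 and 2.10 and Tpsb2 between 1.33 and 1.77 in the baricitinib weeks (lowest adjusted p = 0.0548 and 0.0578 in limma), Cma1 between 0.21 and 1.14, Fcer1a between -1.45 and -0.64 and Hdc between -1.37 and -0.52. The lowest size was found without baricitinib week 0 replicate 3 for Cma1 and without baricitinib week 12 replicate 3 for Fcer1a and Hdc. In the baricitinib weeks Cpa3 ranged between -0.66 and 0.76, Tpsab1 between -0.31 and 0.0052 and Ms4a2 between -0.97 and 0.54. In the vehicle weeks Cpa3 ranged between -0.10 and 1.32, Tpsab1 between -0.092 and 0.38 and Hdc between -0.70 and 0.46. At week 12 between treatments Cpa3 ranged between -0.61 and 0.82, Cma1 between -0.28 and 0.68 and Ms4a2 between -1.47 and 0.046. At week 0 the ranges were -0.044 to 1.27 for Cpa3, -0.19 to 0.70 for Cma1, -0.32 to 0.14 for Tpsb2, -0.097 to 1.15 for Ms4a2 and -0.037 to 0.75 for Fcer1a. For the difference between changes they were -1.28 to 0.15 for Cpa3 and -0.43 to 0.53 for Cma1.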
